A study of Mus musculus with 8 samples.

Results

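The Id inhibitors (Id1, Id2 and Id3) and the E proteins they bind (Tcf3, Tcf4 and Tcf12) were read in Cd11b+ bone marrow cells. The cells came from mice that all lacked E2f1 and had floxed E2f3. E2f2 was intact in controls and absent in the experimental group, which also carried a Cre able to delete the floxed E2f3. The 6 genes were taken as a family, with every probe set annotated to them alone: 19 of 45037 tested probe sets, and 6 of 18193 named genes. The family was selected on measured values of these arrays, since lower Id1 and Id3 in the experimental group had been seen. The contrast of experimental with control arrays is therefore a description for these genes, and where a call among them is counted it supports nothing.

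Controls (4 arrays) carried the genotype E2F1-/-2+/+3f/f, that is E2f1 null, E2f2 intact and E2f3 floxed without Cre. Experimental mice (4 arrays) were Mxcre;E2F1-/-2-/-3f/f, so they also lacked E2f2 and carried a Cre driven by the interferon-responsive Mx promoter. Once induced, this Cre can delete the floxed E2f3, so the design aims at loss of E2f1, E2f2 and E2f3 together. How far E2f3 was deleted is not known here. Animals of both groups lacked E2f1, had floxed E2f3, were on a mixed FVB and C57BL6 background, and were 8 weeks old. Both groups had received 5 injections of 250 µg of the interferon inducer pIpC on alternate days and were killed 24 h after the last. Cells were sorted by FACS on Cd11b, the integrin subunit encoded by Itgam, and 2.5 µg of total RNA per sample was labelled for an Affymetrix mouse array. Cre was present in every experimental sample and in no control, so Cre and E2f genotype cannot be told apart. Nothing in the labels says that each sample came from its own animal, so a p-value covers only how far these samples lie apart, and that may be technical.

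E proteins are basic helix-loop-helix (HLH) transcription factors that bind E-box motifs as dimers, alone or with partners such as Tal1 and Lyl1. Id proteins have the HLH dimerisation domain but no basic region, so a dimer of Id with an E protein does not bind DNA. In blood, Tcf3 (which encodes E2A) is needed for the B lineage, Tcf4 for plasmacytoid dendritic cells and Tcf12 (HEB) for early lymphoid development, while Id2 is needed for NK cells and for several dendritic subsets. Id1 and Id3 are classical targets of BMP signalling through Smad1 and Smad5. Tcf3 and Tcf4 here are the E protein genes and not the Wnt effectors that share those aliases.

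The start of Id3, which read lower, is shown beside that of Id2, whose brighter probe sets overlapped between groups. Both are the 250 bases before the RefSeq start site of the gene in GRCm38.p6, written 5′ to 3′ on the gene's strand. Id3 is read from the plus strand of chr4:136143572-136143821 and Id2 from the minus strand of chr12:25096093-25096342. Capitals mark an E-box (CANNTG), the palindrome GGCGCC, or TATAAG on the gene's strand.
Id3: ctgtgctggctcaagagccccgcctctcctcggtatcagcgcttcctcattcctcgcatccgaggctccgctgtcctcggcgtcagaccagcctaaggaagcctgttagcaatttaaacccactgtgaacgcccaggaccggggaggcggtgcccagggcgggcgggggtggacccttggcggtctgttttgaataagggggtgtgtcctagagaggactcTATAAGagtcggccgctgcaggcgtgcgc
Id2: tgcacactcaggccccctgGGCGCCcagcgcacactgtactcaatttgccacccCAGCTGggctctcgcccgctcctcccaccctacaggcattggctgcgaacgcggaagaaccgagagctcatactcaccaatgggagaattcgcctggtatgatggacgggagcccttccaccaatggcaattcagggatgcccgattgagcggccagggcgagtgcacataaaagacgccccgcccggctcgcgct
Id3 holds TATAAG 29 bases before its start, as do 4.01% of 32851 RefSeq promoters at some place in the same window on the gene's strand. No E-box letters lie in this window of Id3, whereas Id2 has 1 (CAGCTG, 196 bases before the start), as do 66.2% of promoters on either strand. Id2 also holds GGCGCC, found in 9.59% of promoters, 231 bases before its start, and Id3 does not. Neither window holds the E2F letters TTTCGCGC or TTTGGCGC (0.654% of promoters, both strands) or GGCGGGAA (1.86%). Tcf4 was left out of the promoter search. Of the other member genes 4 had an entry in the promoter table, Id2, Id3, Tcf3 and Tcf12. The windows of Tcf3 and Tcf12 held none of the E2F letters searched. Id1 had no entry, so Id1 and Tcf4 are named only. A match is a description of letters and not of a bound site.

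In these bulk samples, fewer cells of a type and less RNA per cell cannot be told apart. Array medians lay between 5.01 and 5.04, and the sort marker Itgam stood at 11.58 ± 0.07 in the control group and 11.54 ± 0.27 in the experimental group (log2, SD, n = 4 each). Codes of the samples in the labels came in 2 styles, digit first for replicates 1 and 2 of each group and letter first for replicates 3 and 4. Arrays of 1 style resembled each other, so differences within each style are given. E2f2, null in the experimental mice and intact in controls, read lower at both of its probe sets (by 0.55 and 0.66 on the log2 scale). In both the groups did not overlap. The position of these probe sets relative to the deleted part is not known here, so they check the genotype no further. E2f3, whose floxed exon is likewise not placed on the array here, read 0.11 and 0.29 higher at its 2 probe sets (limma adjusted p = 0.657 and 0.201). Beta-actin signal at the 3' end exceeded that at the 5' end, a measure of RNA degradation, by 0.27 to 0.32 on the log2 scale in controls and by 0.34 to 0.54 in experimental arrays. This separated the groups, and its part in the values below was not tested. The same measure of Gapdh overlapped, at -0.14 to -0.09 in controls and -0.16 to 0.03 in experimental arrays.

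**Figure D1:**
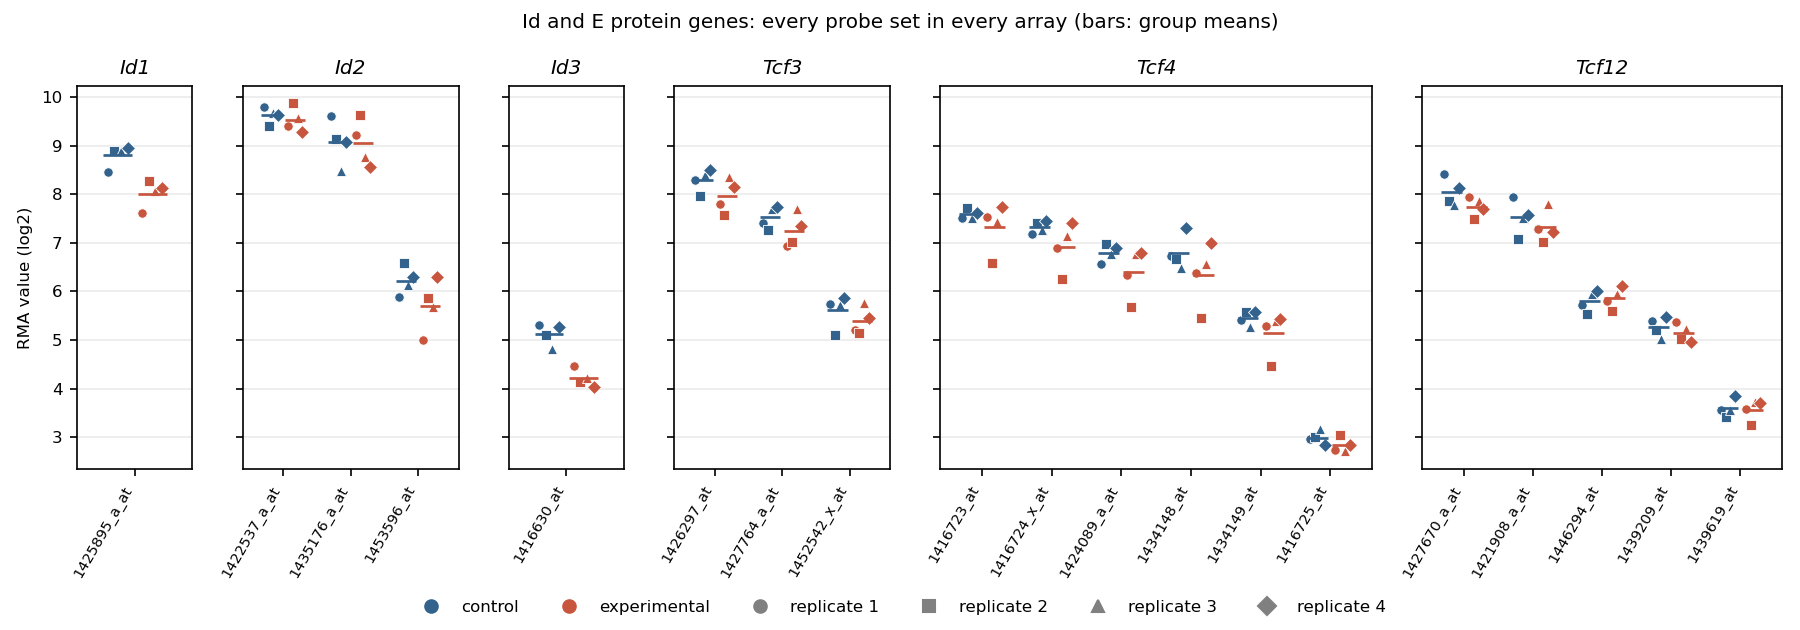
RMA values (log2) of all 19 probe sets of the 6 genes in every array; blue is control, orange experimental, the symbol gives the replicate number and the bar the group mean of 4 arrays. Id1 and Id3 have no overlap between groups, and experimental replicate 2 is the lowest array at 5 of the 6 Tcf4 probe sets.

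Id1, the inhibitor most tied to stem and progenitor cells, had 1 probe set, 1425895_a_at. Its control values were 8.46, 8.89, 8.88 and 8.95 and its experimental values 7.60, 8.26, 8.07 and 8.12, in the order of replicates 1 to 4. Every experimental array lay below every control, with replicate 1 the lowest array of each group. The group levels were 8.80 ± 0.22 and 8.01 ± 0.29 (SD, n = 4), a difference of -0.78 ± 0.16 on the log2 scale (SE), or 58.1% of the control level. Arrays 1 and 2 of each group differed by -0.74 and arrays 3 and 4 by -0.82.

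Id3, an inhibitor induced by antigen receptors and by BMP, also had 1 probe set, 1416630_at, at the level of the array median. It read 5.31, 5.11, 4.82 and 5.28 in controls and 4.45, 4.15, 4.21 and 4.03 in experimental samples. The groups were apart here too, and 3 of the 4 controls lay above the array medians while all 4 experimental arrays lay below them. Levels were 5.13 ± 0.23 and 4.21 ± 0.18 (SD, n = 4), a difference of -0.92 ± 0.14 (SE), or 53.0% of control. By code style it was -0.91 for replicates 1 and 2 and -0.93 for replicates 3 and 4.

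Id1 and Id3 were the member probe sets called lower in the fit over all probe sets (limma, Benjamini-Hochberg adjusted p under 0.05): 2 of 19, where 1.55% of all probe sets were called lower. No member was called higher, where 1.03% were, and 2.58% of probe sets were called in either direction. They were also the 2 members whose groups did not overlap, where 6.15% of all probe sets had every experimental array below every control. None had every experimental array above every control, where 4.64% of probe sets did. These are the values that chose the genes, so the counts restate that choice and show nothing about how stable it is. With replicate number as a block the same 2 members were called, where 2.84% of probe sets were called lower and 2.22% higher. As a limit, Id1 was not called in 6 of the 8 fits that leave out 1 array, all but those without control replicate 1 or experimental replicate 2.

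Id3 is the immediate neighbour of E2f2 on chromosome 4, with no annotated gene between them in RefSeq's order of GRCm38.p6. Of the 10 measured genes nearest to Id3 (5 on either side, each by its brightest probe set), 2 were called in the limma fit, both lower, where 1.95% of all genes were. They were the zinc finger gene Zfp46 (-0.60 ± 0.09, adjusted p = 0.0105) and Tcea3, which encodes an elongation factor of the TFIIS family (-0.999 ± 0.216, adjusted p = 0.0438). Zfp46 read 8.57, 8.51, 8.58 and 8.41 in controls and 7.79, 7.94, 7.96 and 7.97 in experimental arrays. Both lie on the side of E2f2, beyond Asap3, which read 4.12 ± 0.05 and 4.06 ± 0.14 (SD). On the other side, Rpl11 (0.23 ± 0.13), Eloa (-0.01 ± 0.09), Pithd1 (-0.18 ± 0.09) and Lypla2 (-0.25 ± 0.11) overlapped between groups, while Fuca1 was higher in every experimental array (0.56 ± 0.15, adjusted p = 0.0818). Hnrnpr, next to Zfp46 on its far side from Id3, overlapped too (-0.15 ± 0.12, adjusted p = 0.563). The E2f2 deletion marks the same chromosomal segment in every experimental sample, so what lies on that segment cannot be told apart from the E2f genotype.

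**Figure D2:**
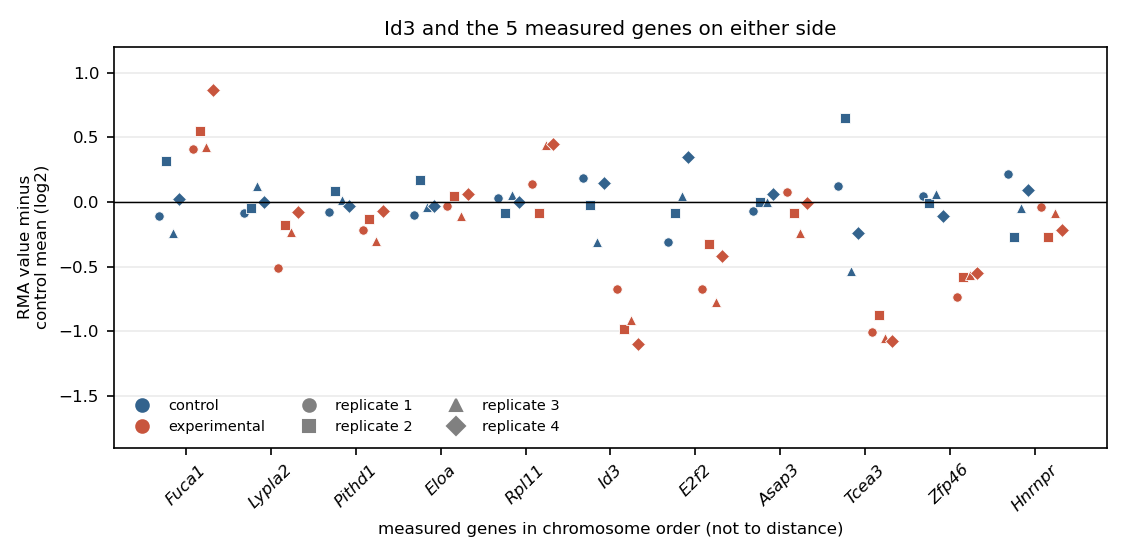
RMA value minus the control mean (log2) for Id3 and the 5 measured genes on either side, in chromosome order and not to distance; each symbol is 1 array. Id3, E2f2, Tcea3 and Zfp46 have every experimental array (orange) below every control (blue).

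Id2, the inhibitor needed for NK and dendritic lineages, had 3 probe sets. At 1422537_a_at it read 9.79, 9.41, 9.66 and 9.63 in controls and 9.41, 9.87, 9.56 and 9.28 in experimental samples. The groups overlapped, and the difference was -0.09 ± 0.14 (SE), with 0.04 for replicates 1 and 2 and -0.22 for replicates 3 and 4. At 1435176_a_at it was -0.03 ± 0.27, and its sign turned without control replicate 1 (0.15), without experimental replicate 3 or 4, within replicates 1 and 2 (0.05), and with sex as a term. The third probe set, 1453596_at, read 5.88, 6.58, 6.13 and 6.29 in controls and 4.99, 5.86, 5.69 and 6.29 in experimental samples, a difference of -0.51 ± 0.25. There experimental replicate 1 was lowest, and without it the difference was -0.27. The probe sets of Id2 therefore gave differences from -0.51 to -0.03, and the groups overlapped in each.

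Tcf3, which encodes E2A, was lower at its 3 probe sets by 0.22 to 0.32, with overlap between the groups in each. At 1426297_at it read 8.28, 7.97, 8.40 and 8.50 in controls and 7.80, 7.57, 8.35 and 8.14 in experimental samples, a difference of -0.32 ± 0.18 (SE), or 80.1% of control. Experimental replicates 1 and 2 were the low arrays. By code style it was -0.44 for replicates 1 and 2 and -0.20 for replicates 3 and 4, and it was -0.19 without experimental replicate 2 and -0.45 without experimental replicate 3. At 1427764_a_at and 1452542_x_at, whose x marks probes that can match other transcripts, the differences were -0.28 ± 0.18 and -0.22 ± 0.19.

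Tcf12, which encodes HEB, had 5 probe sets, with differences from -0.30 to 0.06. The brightest, 1427670_a_at, read 8.42, 7.85, 7.77 and 8.12 in controls and 7.93, 7.48, 7.86 and 7.69 in experimental samples, a difference of -0.30 ± 0.16 (SE). It was -0.17 without control replicate 1, the highest array. At 1421908_a_at the difference was -0.19 ± 0.21, and without control replicate 1 it was -0.06. The 3 other probe sets, at control means of 3.60 to 5.80, differed by -0.13 ± 0.13, -0.04 ± 0.13 and 0.06 ± 0.14. The last, 1446294_at, was the only member probe set with a higher experimental mean.

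Tcf4, the E protein that directs plasmacytoid dendritic cells, had 6 probe sets, all with a lower experimental mean (-0.45 to -0.16) and all with overlapping groups. At 1416723_at it read 7.51, 7.72, 7.51 and 7.62 in controls and 7.54, 6.58, 7.42 and 7.73 in experimental samples, a difference of -0.27 ± 0.22 (SE). Experimental replicate 2 was thus the low array, while the other 3 lay between 7.42 and 7.73, close to the controls. Without it the difference at this probe set was -0.03. The same array lay below the 7 others at 5 of the 6 Tcf4 probe sets, and 1416725_at, at a control level of 2.99, was the exception. At 1434148_at, with the widest spread, controls read 6.72, 6.66, 6.48 and 7.30 and experimental samples 6.38, 5.46, 6.55 and 6.999, and the difference of -0.45 ± 0.30 became -0.15 without experimental replicate 2. At 1416724_x_at, 1424089_a_at and 1434149_at it went from -0.40, -0.40 and -0.31 to -0.18, -0.16 and -0.09.

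Experimental replicate 2 was also the lowest experimental array for most genes of some lists of cell types, but not of others. Of the 15 measured plasmacytoid genes it was lowest for 10, of the 9 B cell markers for 8 and of the 11 NK and innate lymphoid markers for 10. It was lowest for 4 of 7 T cell markers and 4 of 8 megakaryocyte markers. Of the 17 B lineage targets of E2A it was lowest for 8, with experimental replicate 4 lowest for 6. Of the 11 conventional dendritic markers it was lowest for 2, with experimental replicate 4 lowest for 7. The share over all genes is not given here, so these counts have no background beside them. The Ets factor gene Spib read 5.97, 4.66, 5.94 and 6.08 in the experimental arrays, and the chemokine receptor gene Ccr9 5.21, 4.39, 5.31 and 5.23. Their part in the low Tcf4 value of that array was not tested.

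**Figure D3:**
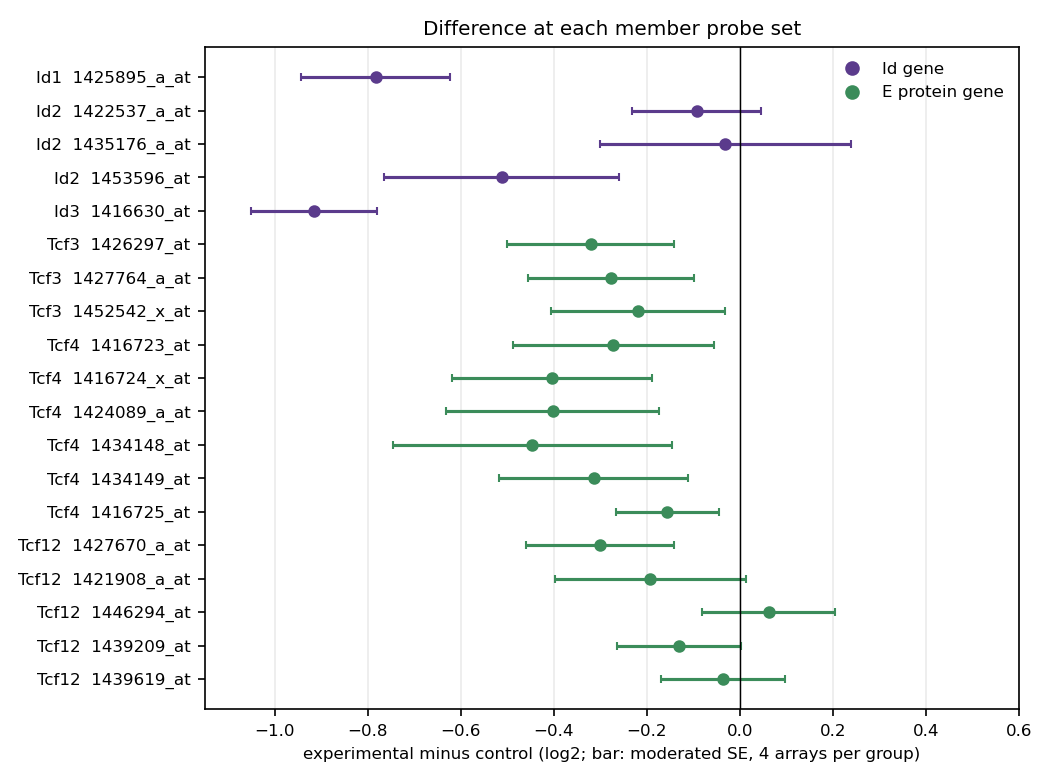
Difference of experimental minus control (log2) at each of the 19 member probe sets, with the moderated SE of the fit over 4 arrays per group; purple is an Id gene, green an E protein gene. Differences run from -0.92 at Id3 to 0.06 at 1 probe set of Tcf12, and 18 of 19 are below 0.

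Across all 19 probe sets the median difference was -0.28 and 18 were below 0, where the median over all probe sets was 0.003 and 22241 of 45037 were below 0. Probe sets of a gene are not independent, so this describes 6 genes. The 14 E protein probe sets had a median of -0.27, with 13 below 0. Centring each array on its median or quantile normalization left the same 18 below 0. The number was 17 to 19 in the fits that leave out 1 array.

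Whether the difference between groups varied with the style of the sample code was tested, since the choice of genes did not rest on it. In limma's fit of the interaction over all probe sets, none of the 19 was called (adjusted p = 0.626 to 0.992), and 1 had an unadjusted p under 0.05, Tcf4 at 1424089_a_at (unadjusted p = 0.0496). Over all probe sets 5 were called, or 0.0111%. With 2 arrays per group and style the SE of the interaction was 0.20 to 0.47 on the log2 scale, so differences of that size between styles were not detectable. The values themselves were more negative within replicates 1 and 2 at 11 of the 14 E protein probe sets. For Tcf4 at 1424089_a_at they were -0.76 within replicates 1 and 2, which hold the low experimental array, and -0.05 within replicates 3 and 4.

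**Figure D4:**
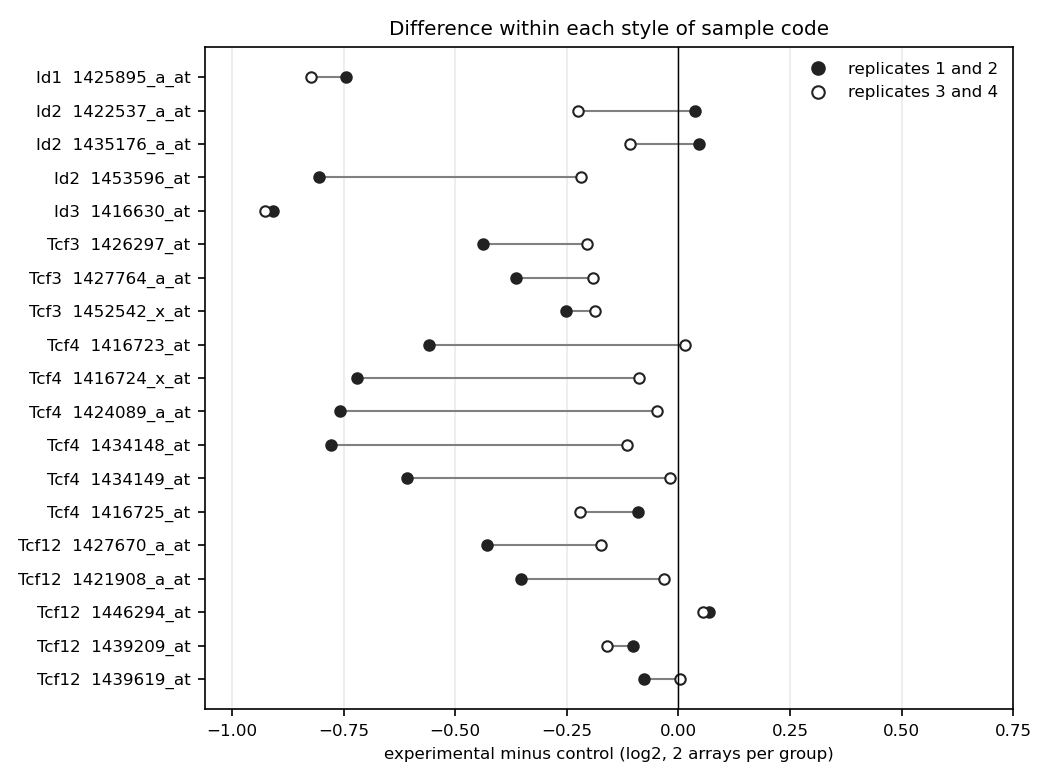
Difference of experimental minus control (log2) within replicates 1 and 2 (filled) and within replicates 3 and 4 (open), 2 arrays per group each, for the 19 member probe sets. Id3 has close values in both (-0.91 and -0.93), as has Id1 (-0.74 and -0.82), while 5 Tcf4 probe sets lie between -0.78 and -0.56 in replicates 1 and 2 and between -0.11 and 0.01 in replicates 3 and 4.

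The other HLH partners of E proteins, from Tal1 and Lyl1 to tissue factors such as Myod1, had no gene of 20 called in either direction by limma (1 lower and 2 higher at unadjusted p under 0.05), beside 1.95% of all genes called lower and 1.53% higher. Their median difference was 0.03, where that of all genes was 0.01, and 15 had control means under the array medians. Lyl1, a partner of early blood cells, read 10.37, 10.36, 10.54 and 10.52 in controls and 9.66, 9.77, 10.07 and 10.28 in experimental samples. Its groups did not overlap (-0.50 ± 0.14 SE, adjusted p = 0.0968), and it was lower with the replicate block (adjusted p = 0.0416). Tal1 differed by 0.50 ± 0.21 (adjusted p = 0.261), and Id4, the fourth Id gene, by 0.16 ± 0.11 at a control level of 4.02.

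Of 12 cofactors found in E protein complexes, none was called (4 lower and 2 higher at unadjusted p under 0.05), with a median of -0.16. The LIM-only genes Lmo4 and Lmo2, adaptors of the Tal1 complex, differed by -0.34 ± 0.11 (adjusted p = 0.143) and 0.29 ± 0.10 (adjusted p = 0.153), and in both the groups did not overlap. With the replicate block, 3 cofactors were called, where 3.02% of genes were lower and 3.16% higher. The Lmo partner gene Ldb1 was higher (limma adjusted p = 0.0344 with the block). Runx1 (adjusted p = 0.0147) and Gata2 (adjusted p = 0.0494) were lower with it. In the fit without a block, Ldb1 differed by 0.56 ± 0.13 (SE, adjusted p = 0.0520). There Runx1 differed by -0.81 ± 0.24 (adjusted p = 0.121) and Gata2 by -0.55 ± 0.15 (adjusted p = 0.0983). Without a block, leaving out experimental replicate 2 gave 1 cofactor higher.

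The BMP and TGF-beta pathway, which induces Id1 and Id3, had 1 of 27 genes higher and 1 lower, where 1.53% and 1.95% of all genes were, with a median of -0.08. Smad1, which carries the BMP signal to the nucleus, rose from 7.10 ± 0.22 to 8.04 ± 0.23 (SD, n = 4), 1.92-fold (0.94 ± 0.15 SE, limma adjusted p = 0.0139). Its arrays read 7.01, 6.91, 7.05 and 7.42 in controls and 7.77, 8.01, 8.03 and 8.34 in experimental samples. Smad1 RNA was thus higher in the arrays in which Id1 and Id3 were lower, and its part in their values was not tested. Tgfbr1, the type I receptor of TGF-beta, fell to 60.3% of control (-0.73 ± 0.11, adjusted p = 0.0136). Both were called in all 8 fits that leave out 1 array. With the replicate block 2 were higher and 2 lower, where 3.16% and 3.02% of all genes were. The block added the receptor genes Acvrl1 (adjusted p = 0.0275) and Bmpr1a (adjusted p = 0.0443). In the fit without a block, Acvrl1 differed by 0.87 ± 0.25 (SE, adjusted p = 0.103) and Bmpr1a by -0.52 ± 0.13 (adjusted p = 0.0784). Also without a block, 2 genes were lower when control replicate 1 or experimental replicate 2 was left out.

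Other regulators of Id genes had none of 14 called (2 lower at unadjusted p under 0.05), with a median of -0.03. The brightest were Cebpb (-0.22 ± 0.21, adjusted p = 0.650) and Stat3 (-0.03 ± 0.13, adjusted p = 0.942, with 1 of its 4 probe sets of opposite sign). Without experimental replicate 2, 1 was lower.

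CDK inhibitor genes that E proteins activate had 1 of 5 higher, where 1.53% of all genes were, and a median of -0.11. Of the 5, 4 had a difference below 0, and at limma's unadjusted p under 0.05, 1 was higher and 2 were lower. Cdkn1a, which encodes p21, rose 4.76-fold (2.25 ± 0.18 SE, limma adjusted p = 0.00113), from 6.99 to 7.52 over the controls to 9.13 to 9.85 over the experimental arrays. It was called in all 8 fits that leave out 1 array. The other 4 did not pass, and without control replicate 3, 1 of them was called lower.

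B lineage genes that depend on E2A were lower: of 17 measured, 8 fell and none rose (0 higher at unadjusted p under 0.05), with a median of -1.29. Over all genes 1.95% were called lower and 1.53% higher. Cd79a, which encodes a signalling chain of the B cell receptor, read 7.95, 7.66, 7.68 and 8.03 in controls and 6.49, 5.86, 6.19 and 6.50 in experimental samples (-1.57 ± 0.16 SE, limma adjusted p = 0.00258). Bach2, a repressor of plasma cell fate (-2.13 ± 0.32, adjusted p = 0.0122), the adaptor gene Blnk (-1.45 ± 0.25, adjusted p = 0.0190) and Foxo1 (-0.64 ± 0.11, adjusted p = 0.0193) fell with it. The number lower was 4 without control replicate 1, 5 without control replicate 2 and 2 without control replicate 4. In those fits 0.602%, 0.486% and 0.486% of all probe sets were called lower. The replicate block added Ebf1 (adjusted p = 0.0124). Markers of B cells in general moved with this list: 5 of 9 fell and none rose (0 higher at unadjusted p under 0.05), with a median of -1.31. They were led by Ms4a1, which encodes CD20 (-2.82 ± 0.42, adjusted p = 0.0116), Fcmr (-2.50 ± 0.42, adjusted p = 0.0185) and Cd79b (-1.31 ± 0.24, adjusted p = 0.0233). Their mean level was 6.57 to 7.07 over control arrays and 4.91 to 5.91 over experimental arrays, and 2 of the 9 had control means under the array medians. The B cell markers share Cd79a, Cd79b and Pax5 with the E2A list. Of the B cell markers 2 were lower without control replicate 1 or 2, and 3 without control replicate 4, and the replicate block added Fcer2a (adjusted p = 0.0341). Id3 and Tcf3 are expressed in B cells, and the part of B cell number in their values was not tested.

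Plasmacytoid dendritic genes downstream of Tcf4 went both ways, with 4 of 15 lower, 1 higher and a median of -0.08. The shares over all genes were 1.95% lower and 1.53% higher. Spib (-2.48 ± 0.30 SE, limma adjusted p = 0.00575), Ly6d (-2.25 ± 0.32, adjusted p = 0.00985), the surface lectin gene Siglech (-1.29 ± 0.20, adjusted p = 0.0142) and Ccr9 (-1.24 ± 0.23, adjusted p = 0.0239, with 2 of its 5 probe sets of opposite sign) fell. Siglech read 6.63, 7.15, 7.17 and 7.55 in controls and 5.89, 5.43, 5.88 and 6.14 in experimental samples. B cells also express Spib and Ly6d. The inhibitory receptor gene Lair1 rose (0.76 ± 0.13, adjusted p = 0.0209), but lost its call when control replicate 1, 2 or 4 was left out, and when experimental replicate 4 was. Without control replicate 2, 2 of the list were lower. The list's mean level was 7.12 to 7.48 over controls and 6.33 to 7.16 over experimental arrays, so the groups met.

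Conventional dendritic markers had 2 of 11 lower, where 1.95% of all genes were, and none higher (0 at unadjusted p under 0.05). Their median was -0.39, and mean levels were 6.84 to 7.63 in controls and 6.37 to 7.04 in experimental arrays. The 2 lower were the lectin gene Cd209a (-2.37 ± 0.32 SE, limma adjusted p = 0.00794) and Cd74, the invariant chain of MHC class II (-1.05 ± 0.21, adjusted p = 0.0347). The number was 4 with the replicate block, which added the MHC class II genes H2-Aa (adjusted p = 0.00912) and H2-Ab1 (adjusted p = 0.0159), and 1, Cd209a, when any of control replicates 1, 2 and 3 was left out, or any of experimental replicates 1, 3 and 4. NK and innate lymphoid markers, from cells that need Id2, had none of 11 called (5 higher and 0 lower at unadjusted p under 0.05), with a median of 0.33. Among them Nkg7 differed by 1.04 ± 0.23 (adjusted p = 0.0518) and Nfil3, a factor upstream of Id2, by -0.26 ± 0.12 (adjusted p = 0.309). With the replicate block 3 were higher, Nkg7 (adjusted p = 0.0343), Gzmb (adjusted p = 0.0116) and Il2rb (adjusted p = 0.0276). Without experimental replicate 2, 4 were higher, where 2.51% of genes were, and without control replicate 3, 1 was.

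Of the remaining cell types, megakaryocyte markers had 4 of 8 lower, where 1.95% of all genes were called lower and 1.53% higher. The platelet chemokine genes Pf4 (-1.49 ± 0.12 SE, limma adjusted p = 0.00113) and Ppbp (-2.24 ± 0.34, adjusted p = 0.0117) were lower. So were Vwf (-0.86 ± 0.14, adjusted p = 0.0174) and Tubb1 (-1.09 ± 0.19, adjusted p = 0.0219). The list's mean level was at least 6.42 in every control and at most 5.98 in every experimental array, and 2 of its genes were lower without control replicate 2. The replicate block added Itga2b (adjusted p = 0.0357). T cell markers had 1 of 7 higher, Cd5 (1.19 ± 0.18, adjusted p = 0.0116), with levels of 5.72 to 6.69 and 6.52 to 6.98. Of the 7, 1 had a control mean under the array medians. Among probe sets with a mean above the median of all tested, 6 T cell markers were left and 0 were higher, so that filter lost the call of Cd5. Erythroid markers had none of 6 called (1 higher and 0 lower at unadjusted p under 0.05), with levels of 7.41 to 7.69 and 7.39 to 8.68. The brightest, Slc4a1 and Alas2, differed by 0.51 ± 0.43 (adjusted p = 0.604) and 1.10 ± 0.42 (adjusted p = 0.216), and Alas2 was higher with the replicate block (adjusted p = 0.0342). Of 12 myeloid markers, 1 fell, the G-CSF receptor gene Csf3r (-0.65 ± 0.09, adjusted p = 0.00943), and the list lay at 12.98 to 13.16 in controls and 12.81 to 13.04 in experimental arrays. No marker of any list stood at 0, since RMA gives no 0. The part of these cell types in the Id and E protein values was not tested.

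**Figure D5:**
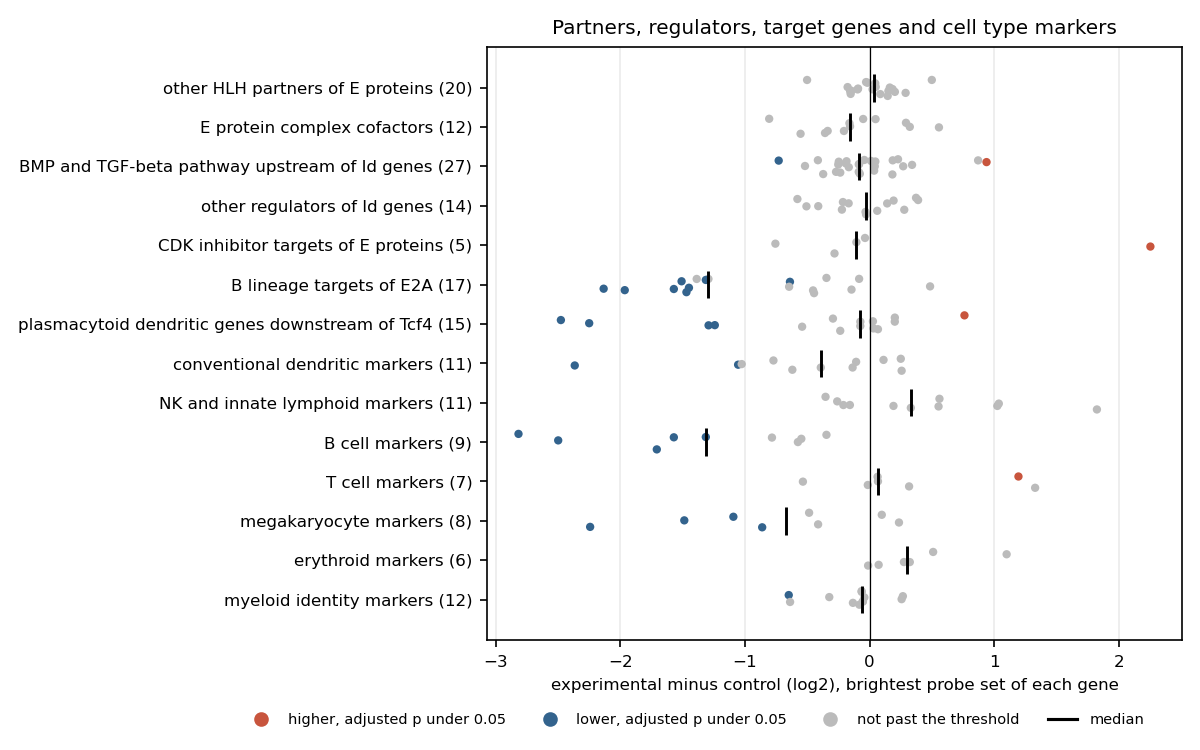
Difference of experimental minus control (log2) of each gene's brightest probe set in 14 lists, with the number measured in brackets; orange is higher and blue lower at adjusted p under 0.05, grey neither, and the black bar is the list's median. The lists with the lowest medians are the B cell markers (-1.31) and the B lineage targets of E2A (-1.29).

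Likeness to Id1 and Id3 was measured as the mean absolute gap between profiles over the 8 arrays, each centred on its own mean. The profiles hold the group difference on which Id1 and Id3 were chosen, so genes with a like difference come out near. All genes named here had a lower experimental mean. Nearest to Id1 were Rala, a small GTPase gene (gap of 0.07 on the log2 scale), Wdr47 (0.10), Gabpb1 (0.11), Dyrk1a (0.11) and Foxj2 (0.11). Nearest to Id3 were Zfp869 (0.07), Trim59 (0.12), Has2, a hyaluronan synthase gene (0.13), Tppp (0.13) and Gpr155 (0.13). Group levels (SD, n = 4) of control and experimental arrays were 8.72 ± 0.16 and 7.96 ± 0.26 for Rala, and 7.15 ± 0.22 and 6.24 ± 0.17 for Zfp869. With the median gap in place of the mean, 1 of the 5 was shared for each gene, so these names depend on the measure.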

How the data were processed

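Expression was measured on 8 Affymetrix arrays, 4 control and 4 experimental. The deposited log2 values, 1 per probe set, came from RMA per the submitters' processing notes. It is not stated whether RMA was run on all arrays at once. Of 45101 probe sets, 64 control probe sets were left out. The platform annotation gave 34945 probe sets 1 gene symbol, 932 several and 9160 none, and 34741 of the first matched RefSeq by gene identifier. Only probe sets with 1 symbol were named.

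Differences are experimental minus control, fitted with limma 3.58.1 in R 4.3.3 (lmFit, eBayes, group as the only term) over 45037 probe sets, two-sided, with Benjamini-Hochberg adjustment and a threshold of 0.05. For the 18193 genes, the brightest probe set stood for the gene. An interaction of group and code style was fitted in the same way. The fits were tested on simulated data. The number of arrays limits the precision.

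The members, the 14 lists and the tests were chosen with earlier results of these data known. Named genes were every member probe set, up to 4 genes per list and direction with the smallest p (the 2 brightest where none passed), the 5 measured genes on either side of Id3, and the 5 nearest profiles to Id1 and Id3. Genes called with the replicate block alone, and Id4, Itgam and Cd72, are named beside these, chosen after their values were seen. Same-numbered arrays of the groups deviated together from their group means (correlation over probe sets of 0.20 to 0.26 for the 4 pairs). Different numbers within a code style correlated at 0.14 to 0.26, an overlapping range, and those of the other style at -0.27 to -0.13. The correlations therefore do not tell pairing by number from code style. The replicate block took the numbers as pairs, which is an assumption. Levels of Xist and Eif2s3y gave the sex of each sample, with 2 male and 2 female controls and 1 male and 3 female experimental samples. Alternatives were centring on the array median, repeated quantile normalization, leaving out dim probe sets, other variance models, array weights, blocks, gene averages, each code style alone and leaving out each array. RefSeq promoter windows were searched for fixed letters.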

Additional observations from a re-analysis of the deposited data

Results flagged for a closer look

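In groups of 4 arrays, 112 groups of 56 named probe sets were examined for an array standing apart from the other 3, and 10 were found. Chance gives about 1 in 20 for independent values. These groups share arrays and genes, and many probe sets were named for their values, so that rate is no yardstick for the 10. Among the members, control replicate 1 was low for Id1 (8.46, the others 8.88 to 8.95) and experimental replicate 2 was low for Tcf4 at 1434149_at (4.46, the others 5.29 to 5.43). The same experimental array was low for Spib (4.66), Ccr9 (4.39) and Cd72, which encodes a surface receptor of B cells (4.62), and high for Tgfbr1 (9.28). Control replicate 4 was low for Cd209a (7.46) and Cd74 (10.67). Control replicate 1 was low for Tubb1 (5.35), and experimental replicate 1 was low for Zfp46 (7.79).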

How the results depend on the processing

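The difference stayed below 0 under all 19 alternatives for Id1 and all 17 for Id3, which both filters on dim probe sets left out, and moved by less than the SD of the controls. The groups of both genes do not overlap, and the genes were chosen on this contrast. Leaving out an array, taking 1 code style or adding the block therefore could not change the sign, which shows nothing about how stable it is. Without 1 array it ran from -0.89 to -0.65 for Id1 and from -1.02 to -0.86 for Id3. Id1 lost its call with sex as a term and within replicates 1 and 2, and Id3 within replicates 1 and 2 and within replicates 3 and 4, fits of 2 arrays per group. The members that moved by more than the SD of the controls were 4 Tcf4 probe sets.

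Over all probe sets, 696 were lower and 466 higher. The numbers were 1277 and 1000 with the replicate block, 1446 and 1136 with code style as a term, 370 and 293 with sex as a term, 70 and 60 within replicates 1 and 2, and 177 and 241 within replicates 3 and 4. Without 1 array they were 219 to 978 and 176 to 766. For the interaction, 5 probe sets were called, 3 among those above the median level, 0 at a mean level of at least 6, 3 with array weights, and 0 to 22 without 1 array, the 22 without experimental replicate 2. Over all lists, 23 genes were lower and 4 higher, and 10 were higher with the replicate block, 7 with array weights, 7 with code style as a term and 8 when probe sets were averaged. Within replicates 1 and 2 alone, 2 were lower and 0 higher. Without 1 array, 13 to 25 were lower and 3 to 9 higher. The replicate block kept the call of all 27 list genes called without it. The cause of these shifts was not tested.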
